A study of Mus musculus with 12 samples.

Results

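The cytosolic ribosome is built from ribosomal RNA and a fixed set of proteins, and the genes for those proteins were described here in mouse prefrontal cortex. They were the protein-coding genes whose symbols begin with Rpl or Rps and a number, plus Rpsa, Rplp0, Rplp1 and Rplp2, without the S6 kinase genes and without symbols that carry -ps. This gave 86 genes of 35272 in the files, of which 21899 were protein coding. By symbol, 52 belonged to the large subunit and 33 to the small subunit, and 1, Rps19bp1, encodes a protein that binds a ribosomal protein and is no ribosomal protein itself. They lay on 19 chromosomes, and 4 were X-linked. Another 6 genes annotated as protein coding carry -ps and a number in their symbols and were kept apart, since a rule that took them in would have given 92. The ribosomal proteins encoded by Fau and Rack1 lie outside the symbol rule.

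RNA was measured in 12 libraries from female C57BL/6JN mice, an inbred strain, in 4 groups of 3. Young mice were 4 months old and old mice 20 months old, and each age received intraperitoneal saline or morphine at 3 mg/kg, an opioid that acts mainly at the mu opioid receptor. No genetic change was named in the labels. Separate animals for the replicates are not stated in the labels, and p-values thus speak only of the spread among these 12 samples, which may be partly technical. Estimated reads per library ran from 20236452 to 40480571 in 11 libraries and reached 148856113 in young morphine replicate 2. Markers of excitatory neurons (7 genes, summed CPM 5063 to 6714) and inhibitory neurons (6 genes, 490 to 684) were present in every library. CPM (reads divided by the scaled library total) give a gene's level in a library. The 7 olfactory bulb markers summed to 119 and 111 CPM in old saline replicates 1 and 2, 176 in young morphine replicate 3 and 178 in old morphine replicate 1, against 53.8 to 68.3 in the other libraries.

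Ribosomal proteins are made in matched amounts because each ribosome takes one copy of nearly all of them. Their messenger RNAs are short, abundant and stable, and many begin with a run of pyrimidines, the 5′ terminal oligopyrimidine or TOP tract, through which the mTOR pathway controls their translation. In neurons, ribosomes work in the cell body and also in dendrites, where local translation takes part in synaptic change. The genes have also left many processed pseudogenes, copies of the spliced messenger RNA that were inserted elsewhere in the genome.

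One such copy is identical to the coding sequence of Rpl10a, the large-subunit protein whose tagged form is widely used to pull ribosomes out of chosen cell types. Rpl10a lies at chr17:28328471-28331033 on the plus strand of GRCm38, and its processed pseudogene Rpl10a-ps1 lies at chr1:64993951-64994604. The whole annotated pseudogene, 654 bases, was found letter for letter in the transcript Rpl10a-201 from its base 144 onwards, which is the coding sequence with its stop codon. The first 120 bases of both, from GENCODE M21, are printed because the reads of this pair carry the main result, with the start codon in capitals.
Rpl10a: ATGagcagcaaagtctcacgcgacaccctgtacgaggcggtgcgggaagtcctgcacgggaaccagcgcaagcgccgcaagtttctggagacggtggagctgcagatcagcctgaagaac
Rpl10a-ps1: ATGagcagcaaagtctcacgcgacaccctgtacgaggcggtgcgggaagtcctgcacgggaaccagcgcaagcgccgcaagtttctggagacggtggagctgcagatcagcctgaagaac
A read that falls within these bases carries no letter that tells the gene from the pseudogene.

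The start regions of 4 further genes show the TOP tract and the unlike starts of a near-identical pair, Rps27 and Rps27rt. Each run covers 60 bases before to 10 bases after the start of transcription in RefSeq (GRCm38.p6), on the strand of the gene, and capitals mark the pyrimidine tract. Rps24 is at chr14:24490618-24490687, Rps27 at chr3:90213639-90213708, Rps27rt at chr9:114982730-114982799 and Rps18 at chr17:33955656-33955725.
Rps24: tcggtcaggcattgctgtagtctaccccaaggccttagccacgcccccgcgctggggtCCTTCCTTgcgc
Rps27: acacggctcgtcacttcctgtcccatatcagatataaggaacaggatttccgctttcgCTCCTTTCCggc
Rps27rt: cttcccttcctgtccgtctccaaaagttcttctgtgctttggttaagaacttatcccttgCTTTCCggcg
Rps18: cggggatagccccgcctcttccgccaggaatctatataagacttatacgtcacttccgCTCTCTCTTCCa
The coding sequences of Rps27 and Rps27rt (246 and 252 bases) matched at 100% identity over at least 80% of the length. In these windows, though, 14 of the first 50 positions matched and the longest shared run was 10 bases. RefSeq gave start regions for 66 of the 86 genes, at 78 start sites. A tract of a C followed by at least 4 pyrimidines, starting within 3 bases of the start site, was found for 26 of the 66 (39.4%), against 13.5% of 27025 genes in the table. In windows of 300 bases (250 before to 50 after the start), searched on both strands, CCGGAAG was present in 39.4% of the 66 and 9.93% of all genes. AAGATGGC was present in 9.09% against 3.19%, and TATAAA in 10.6% against 15.7%. These are letter matches in a window and no measurement of binding.

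Ribosomal protein messenger RNAs were among the more abundant in the tissue. TPM, a unit that divides reads by transcript length, allows levels of different genes to be set side by side. The median gene was at 347 TPM, 77 of the 86 averaged over 100 TPM, and 4 averaged over 1000 TPM. Rps29 was highest at 1302 TPM (range over libraries 943 to 1687), followed by Rpl41 at 1211 TPM (912 to 1404), the stalk protein gene Rplp1 at 1159 TPM (895 to 1302), Rpl38 at 1061 TPM (888 to 1197) and Rps21 at 970 TPM (785 to 1089). The ranges of these 5 neighbours overlapped, so their order is not resolved. Their proteins are all small, and Rpl41 is the smallest of the ribosome.

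**Figure D1:**
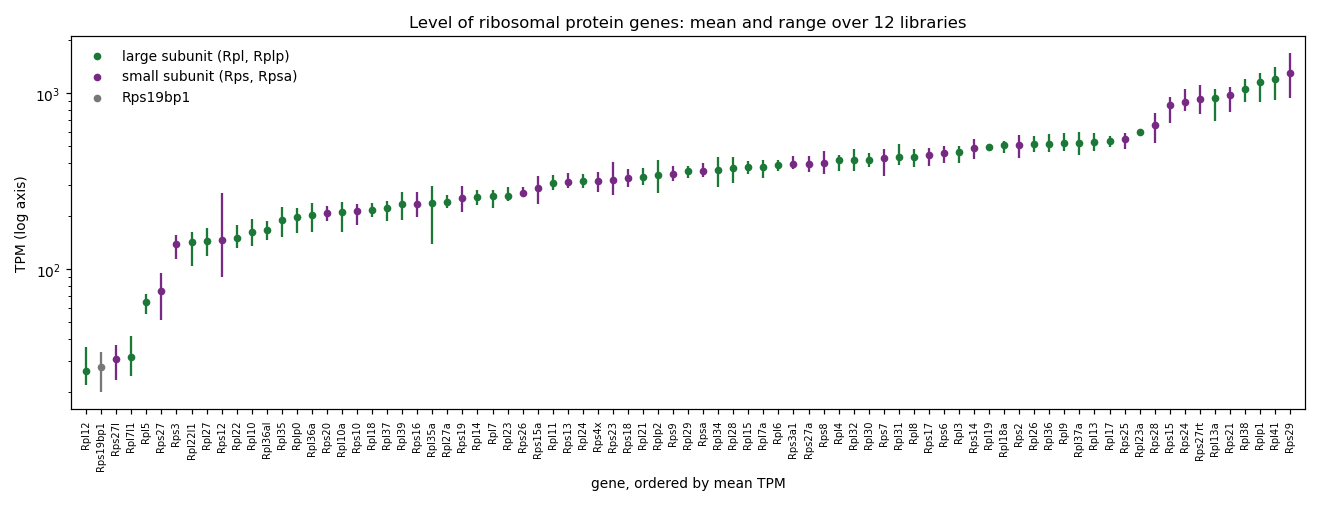
Mean TPM (points, log axis) and lowest to highest library (lines) of 81 of the 83 tested ribosomal protein genes over 12 libraries, ordered by mean, with subunits in colour. Most genes lie between 100 and 1000 TPM, 4 genes are above 1000, and Rps12 and Rpl35a have the longest lines among genes above 100 TPM.

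At the low end stood Rpl12 at 26.6 TPM, Rps19bp1 at 27.8, Rps27l at 30.8, Rpl7l1 at 31.8, Rpl5 at 65.4 and Rps27 at 75.4 TPM. Rpl12, Rpl5 and Rps27 encode core ribosomal proteins, and for each a copy elsewhere in the genome held most of the reads, as given further on. Rps27l and Rpl7l1 are paralogs rather than core members, the first a p53-responsive relative of Rps27 and the second a factor of ribosome assembly. The other paralogs ranged widely. Rpl22 averaged 150 TPM and its paralog Rpl22l1 143 TPM, and Rpl36al averaged 167 TPM beside 202 TPM for X-linked Rpl36a. Rpl3l, known from striated muscle, and Rpl10l and Rpl39l, known from testis, averaged 0.310, 0.007 and 0.209 TPM and were the 3 genes with too few reads to be tested. Rpl10l had reads in 1 of the 12 libraries. The limit that a count of 0 allows, 3 reads, is 0.0202 CPM at the greatest depth and 0.148 CPM at the smallest, for counting error only. Among X-linked genes, Rps4x was at 319 TPM, Rpl39 at 235 TPM and Rpl10 at 162 TPM.

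The genes together took 0.706 to 0.793% of a library's reads and 2.99 to 3.51% of its TPM. Their share of reads was 0.760% ± 0.0155 in young saline, 0.749% ± 0.0352 in young morphine, 0.772% ± 0.0290 in old saline and 0.724% ± 0.0212 in old morphine (SD, n = 3). The old morphine libraries (0.706, 0.747 and 0.718%) overlapped both old saline (0.739, 0.783 and 0.793%) and young morphine (0.789, 0.723 and 0.736%). Reads of the large subunit genes were 1.52 to 1.58 times those of the small subunit genes in every library. Bulk tissue cannot tell a change in RNA per cell from a change in the number of cells that hold it.

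Measured against each gene's own mean, most genes lay on the same side in some libraries and split about evenly in others. In old morphine replicate 1, 12 of 83 genes stood above their mean over the 12 libraries and the median deviation was -0.10 on the log2 scale. In young saline replicate 1, 64 of 83 stood above it and the median was 0.09, and in young morphine replicate 1, 69 of 83 with a median of 0.08. In old morphine replicates 2 and 3 and young saline replicate 2 it was 43, 39 and 35 of 83, with medians of 0.005, -0.01 and -0.009. Within groups the median SD of a gene was 0.0906 on the log2 scale, against 0.132 over all 16796 tested genes and 0.103 over genes at or above the CPM of the lowest of them. The correlation of a gene's deviations from its group means with the mean of the other ribosomal protein genes, over 12 libraries that share depth and composition, was above 0.5 for 56 of the 83 and below 0 for none. It was highest for Rpl41 (0.95), Rpl38 (0.92) and Rpl32 (0.91) and lowest for Rps27 (0.01), Rps12 (0.01) and Rpl5 (0.05).

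**Figure D2:**
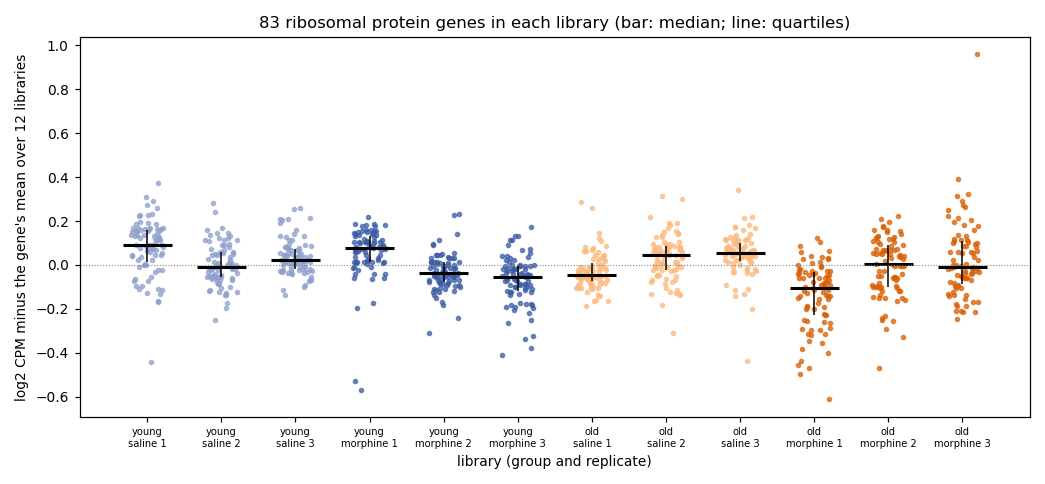
Deviation of log2 CPM from each gene's mean over 12 libraries for the 83 tested genes (points), by library, with the median (bar) and quartiles (line). Old morphine replicate 1 has the lowest median, -0.10, and the single point near 1 in old morphine replicate 3 is Rps12.

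Near-identical copies were then sought for every gene as transcripts of another gene that match its coding sequence at 95% identity or more over at least 80% of its length. Copies were found for 79 of the 86 genes. Without those that were themselves among the 86, such as Rps27rt, there were 554. To these 554, 7.04 to 8.41% of the reads of a library's gene families were assigned. All reads of a gene that holds such a match were counted, those outside the match included. Shares on copies can therefore be too high where that gene is longer, as with BC004004 for Rpl21. For 14 genes over 10% of the family's reads lay on copies, and for 5 over 50%. Rps27 had 92.8% of its family's reads on copies, nearly all on Rps27rt, which itself carries a ribosomal protein symbol. Rpl12 had 89.4% on copies (Gm10275), Rpl5 76.6% (Gm15500), Rpl10 70.1% (Rpl10-ps3) and Rps12 64.0% (Rps12-ps3). The low levels of Rpl12, Rpl5 and Rps27 are therefore levels of the reads given to those loci. Whether the copies are transcribed was not tested.

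For these 14 genes and Rpl10a, the reads of the gene and of its most read copy were followed over the libraries. In 9 of the 15 pairs the whole annotated copy lay within a transcript of the gene, letter for letter. The deviations of gene and copy from their group means correlated negatively in 9 of the 15 pairs, and the sum of gene and copy had a smaller coefficient of variation than the gene in 11. A sum can have a smaller coefficient also without opposite movement, as for Rpl12 (9.54% for the gene, 5% for the sum, correlation 0.07). Rps12, of the small subunit, had the most negative correlation. Its reads ranged from 16.2 CPM in young morphine replicate 1 to 46.9 CPM in old morphine replicate 3, while Rps12-ps3 was highest in the first (61.2 CPM) and lowest in the second (24.2 CPM), and the correlation was -0.95 over 12 libraries. The sum of both ran from 65.5 to 80.2 CPM, and the coefficient of variation within groups was 18.1% for Rps12 and 6.48% for the sum. Rps23 did likewise, with a correlation of -0.78 with Rps23-ps1.

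The question whether age moved these genes was first asked under saline. No ribosomal protein gene passed the test (0 of 83; over all genes 0.464% passed) by edgeR's quasi-likelihood test with Benjamini-Hochberg adjustment, and none by DESeq2 or limma-voom. At an unadjusted p under 0.05, 0 were higher (over all genes 6.64%) and 2 were lower (6.9%). The median log2 fold change was -0.03, against 0.01 for all genes, and all 83 lay within 0.19 of 0. Rplp1, of the stalk that recruits elongation factors, was at 160, 158 and 157 CPM in young and 133, 147 and 148 CPM in old saline libraries, which did not overlap (log2 fold change -0.15 ± 0.06, SE; edgeR adjusted p = 0.311). Rps2, Rps10 and X-linked Rpl36a had log2 fold changes of -0.13, -0.15 and -0.19, and Rpl7l1 and Rps27a of 0.12 and 0.11. Rpl10a was at 57.8, 66.9 and 60.7 CPM in young and 63.0, 66.7 and 70.3 CPM in old mice. In 4 genes every old library lay below every young one, against 8.92% of all genes. The summed markers of excitatory neurons (6054 to 6714 CPM in young, 5099 to 5938 CPM in old saline) did not overlap. Nor did those of inhibitory neurons (490 to 528 against 554 to 626 CPM) and oligodendrocyte precursors (174 to 180 against 152 to 166 CPM). The log2 fold change was negative for 7 of 7 excitatory, 2 of 6 inhibitory and 4 of 5 precursor markers. Of the precursor markers, Gpr17 passed the test (log2 fold change -0.68; edgeR adjusted p = 0.00026). Other marker sums overlapped, and the part of the markers was not tested.

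Morphine in young mice likewise moved no ribosomal protein gene past the threshold (0 of 83; over all genes 0% passed; edgeR), and DESeq2 and limma-voom called none of them. At an unadjusted p under 0.05, 1 was higher (over all genes 4.91%) and 4 were lower (4.2%). The median log2 fold change was -0.04 against -0.00 for all genes. Rps27l stood farthest from 0. It was at 4.36, 4.73 and 4.64 CPM under saline and 3.39, 3.13 and 3.06 CPM under morphine, with every morphine library below every saline library (log2 fold change -0.52 ± 0.16, SE; edgeR adjusted p = 0.313). Rps16 was at 56.9, 53.1 and 50.8 CPM under saline and 48.9, 46.7 and 45.5 CPM under morphine (-0.19 ± 0.06; edgeR adjusted p = 0.324). Rps13 had -0.17, and Rpl7l1, Rps27a and Rpl12 had 0.16, 0.09 and 0.17. In 8 genes the groups did not overlap, against 16.5% of all genes. The summed markers of oligodendrocytes (534 to 809 CPM under saline, 914 to 1025 CPM under morphine) and astrocytes (6842 to 7534 against 6079 to 6550 CPM) did not overlap. Nor did those of excitatory neurons (6054 to 6714 against 5474 to 6019 CPM), microglia and oligodendrocyte precursors. The log2 fold change was positive for 8 of 8 oligodendrocyte markers and negative for 7 of 7 astrocyte and 7 of 7 microglial markers. It was negative for 3 of 5 oligodendrocyte precursor markers. Of the 7 excitatory neuron markers 4 were positive and 3 negative, with a median of 0.01, so most of them did not share the lower sum. Other marker sums overlapped, and the part of the markers was not tested.

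In old mice, morphine against saline gave 1 ribosomal protein gene past the threshold of 83 (over all genes 0.583% passed), and that gene was Rpl10a. It was at 63.0, 66.7 and 70.3 CPM under saline and 49.2, 43.6 and 54.9 CPM under morphine, so that all 3 morphine libraries lay below all others of the study. Rpl10a fell by 0.43 ± 0.08 (SE) on the log2 scale (edgeR adjusted p = 0.0282). The call was lost without old saline replicate 2 or 3, old morphine replicate 2, young saline replicate 3 or young morphine replicate 3, with edgeR adjusted p between 0.0505 and 0.160. It was also lost with length-scaled counts (-0.34; edgeR adjusted p = 0.200) and with only the old libraries in the fit (edgeR adjusted p = 0.113). DESeq2 called 6 genes, all lower (over all genes 4.62%), and limma-voom called 1 (over all genes 0.393%). Without old saline replicate 1, edgeR called 8 of 84 (over all genes 4.18%), all lower, among them Rps28 and Rpl28. That library and old saline replicate 2 were high in olfactory bulb markers (119 and 111 CPM), and so was old morphine replicate 1 (178 CPM). Without old morphine replicate 1, Rpl10a was still called. A fit without both old saline replicates 1 and 2 keeps 1 old saline library and takes the spread from the other groups, so few calls could be made. Markers of other cell types also differed between the old groups, with no marker gene at 0. None of the cell type marker genes passed the edgeR test for morphine in old mice. The summed markers of microglia (7 genes; 281, 364 and 322 CPM in old saline, 272, 271 and 271 CPM in old morphine) and oligodendrocyte precursors (5 genes; 152, 166 and 164 against 145, 145 and 135 CPM) did not overlap. Those of meningeal fibroblasts (5 genes; 231 to 475 against 97.6 to 285 CPM), blood (5 genes; 352 to 924 against 155 to 440 CPM), mural cells (5 genes; 181 to 248 against 166 to 211 CPM) and astrocytes (7 genes; 6299 to 8016 against 6695 to 7015 CPM) overlapped, though the log2 fold change was negative for 5 of 5, 5 of 5, 4 of 5 and 7 of 7 of their genes. Oligodendrocyte markers (8 genes) summed to 660 to 853 against 805 to 1084 CPM, with 7 of 8 genes positive. Excitatory neuron markers (7 genes) summed to 5099 to 5938 against 5063 to 5326 CPM, with 5 of 7 genes positive. Their part in the results on ribosomal protein genes was not tested.

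Reads on the pseudogene ran the opposite way. Rpl10a-ps1 was listed at 0 CPM in the 3 old saline libraries and at 13.0, 18.1 and 4.96 CPM in the 3 old morphine libraries. In young saline it was at 11.5, 0 and 6.70 CPM, and in young morphine at 0, 0.217 and 0 CPM, so that the 6 libraries with reads on the copy were those with the 6 lowest values of Rpl10a. The correlation of the deviations from the group means was -0.71 over 12 libraries. Added up, gene and copy stood at 63.0, 66.7 and 70.3 CPM in old saline and 62.2, 61.8 and 59.8 CPM in old morphine. With the reads of copies added to their genes throughout, Rpl10a had a log2 fold change of -0.12 ± 0.06 (SE; edgeR adjusted p = 0.273), and no ribosomal protein gene passed in this comparison (0 of 83 by edgeR; over all genes 0.587% passed), with 17 at an unadjusted p under 0.05 (over all genes 18.7%).

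**Figure D3:**
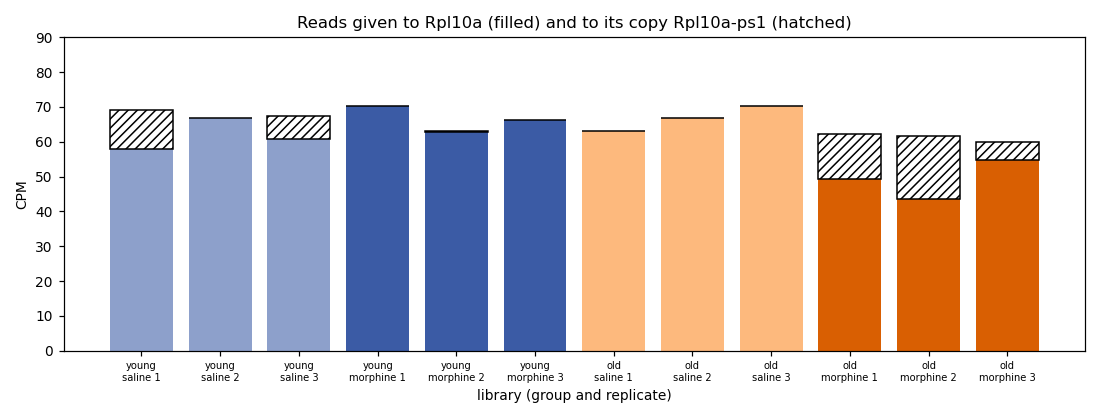
CPM of Rpl10a (filled bars) and of its pseudogene Rpl10a-ps1 (hatched, stacked on top) in the 12 libraries. Hatched parts appear in 2 young saline and all 3 old morphine libraries, and the stacked totals lie between 59.8 and 70.3 CPM.

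The shares of the transcripts of Rpl10a varied widely within groups. Rpl10a-201, which contains the pseudogene's sequence, held 42.2, 52.1 and 76.5% of the gene's reads in old saline and 42.2, 31.6 and 26.6% in old morphine, so that the 2 groups met at their edges. In young saline it held 62.1 and 60.8% in the 2 libraries with reads on the copy and 45.2% in the third, the other way round from old morphine. Rpl10a-212 held 20.8% ± 16.6 in old saline and 39.1% ± 12.5 in old morphine (SD, n = 3). Of genes outside the rule, those most like Rpl10a by Pearson r of log2 CPM over 12 libraries were Dhcr7 (0.92), Ssc4d (0.91), Acot8 (0.90), 6430531B16Rik (0.90) and Trappc9 (0.89), chosen as the highest of all tested genes. Among the ribosomal protein genes Rpl28 reached 0.92.

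As fitted, the ribosomal protein genes of old mice, Rpl10a included, leaned lower under morphine. At an unadjusted p under 0.05, 18 were lower (over all genes 8.56%) and 3 higher (10.1%). The median log2 fold change was -0.06 against -0.00 for all genes, with 58 of 83 negative, and the large and small subunit medians were -0.06 and -0.05. With a trend on GC share and transcript length taken out of every library, the median was 0.0097 against 0.03 for all genes. Both medians thus turned positive, and that of the ribosomal protein genes stayed below that of all genes. Groups did not overlap in 17 genes against 20.4% of all genes, 12 of them lower against 9.75% of all genes. Rps28 was at 53.1, 57.9 and 54.9 CPM under saline and 42.6, 41.6 and 49.2 CPM under morphine (-0.31 ± 0.07; edgeR adjusted p = 0.0586). The lowest p among higher genes belonged to Rpl21 (0.24), Rpl5 (0.21) and Rpl36a (0.30), none past the threshold.

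Whether the response to morphine differed between ages was tested as an interaction. No ribosomal protein gene passed (0 of 83; over all genes 0%; edgeR), and limma-voom called none of them. At an unadjusted p under 0.05, 2 were positive (over all genes 6.58%) and 5 negative (4.19%). DESeq2 called 1, Rpl10a (adjusted p = 0.00714), where it called 0.685% of all genes. The edgeR estimate for Rpl10a was -0.54 ± 0.12 (adjusted p = 0.255), and -0.09 ± 0.08 with the copies' reads added. Rpl28 had -0.24, and Rpl21, Rpl36a and Rpl23 had 0.39, 0.40 and 0.23.

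Old against young mice under morphine was the comparison with the most calls, in these genes as in the whole transcriptome. It shares its old morphine libraries with the comparison in old mice. Of 83 ribosomal protein genes 8 passed, 9.64%, beside 9.65% of all genes, so their share was that of the background. The 6 genes that fell (over all genes 4.72%) included Rpl10a, Rps2, Rplp1 and Rpl18, and the 2 that rose (over all genes 4.93%) were Rps24 and Rpl21. The count changed when single libraries were left out. It was 2, 3 and 2 without young morphine replicate 1, 2 or 3 and 4, 4 and 3 without old morphine replicate 1, 2 or 3, with Rpl10a called each time, and 6 to 9 without any 1 of the saline libraries. With length-scaled counts edgeR called none. The shares of all genes in these fits are not given, and leaving out a library can cost calls in any gene. The lower counts are thus not read as a trait of the ribosomal protein genes. Between these groups the summed markers of excitatory neurons (5474 to 6019 CPM in young, 5063 to 5326 CPM in old morphine) and astrocytes (6079 to 6550 against 6695 to 7015 CPM) did not overlap. Nor did those of oligodendrocyte precursors (156 to 171 against 135 to 145 CPM) and striatum (90.8 to 106 against 87.2 to 89.8 CPM). The log2 fold change was negative for 6 of 7, 2 of 7, 4 of 5 and 4 of 6 of their genes in that order. By edgeR, Slc17a7, Gpr17, Olig1, Cldn11 and 1 of the 6 striatal markers fell past the threshold (adjusted p = 0.0056, 0.0019, 0.0064 and 0.024 for those named, in that order). The part of the markers was not tested.

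Among small-subunit genes, Rps2, whose protein sits at the entry of the messenger RNA channel, was at 197, 178 and 188 CPM in young and 153, 160 and 155 CPM in old mice (log2 fold change -0.27 ± 0.06, SE; edgeR adjusted p = 0.0164). Every old library lay below every young library. Rps24, which is needed for processing of ribosomal RNA, was at 161, 148 and 154 CPM in young and 172, 194 and 189 CPM in old mice (0.26 ± 0.07; edgeR adjusted p = 0.0275). Its main transcript Rps24-202 held 71.0% ± 1.31 of its reads in young and 70.4% ± 0.687 in old morphine libraries, and Rps24-205 12.6% ± 0.516 and 13.6% ± 0.497 (SD, n = 3). The shares of Rps24-202 differed by less than their spread.

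Among large-subunit genes, Rplp1 was at 158, 147 and 142 CPM in young and 122, 138 and 121 CPM in old mice (-0.23 ± 0.06; edgeR adjusted p = 0.0337). Rpl18 was at 56.7, 50.5 and 52.3 CPM and 43.4, 46.0 and 44.4 CPM (-0.25 ± 0.07; edgeR adjusted p = 0.0466). Rpl21 was at 155, 134 and 126 CPM and 157, 169 and 181 CPM (0.29 ± 0.08; edgeR adjusted p = 0.0334). The young and old libraries of each did not overlap. Rpl21 has 54 copies, and 26% of its family's reads lay on them. Most of these, a mean of 1826 of 2201 reads, lay on BC004004, a protein-coding gene with a transcript of 13859 bases. The coding sequence of Rpl21 has 480 bases, and reads of BC004004 outside the match were counted too. The value of Rpl21 is therefore uncertain, as is that with copies added, a rise of 0.23 ± 0.07 (edgeR adjusted p = 0.0401). Rpl10a fell by 0.43 ± 0.08 (edgeR adjusted p = 0.00798), and with its copy added the value was -0.12 ± 0.06 (edgeR adjusted p = 0.215). With copies added, the other 7 genes passed (over all genes 9.87%).

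**Figure D4:**
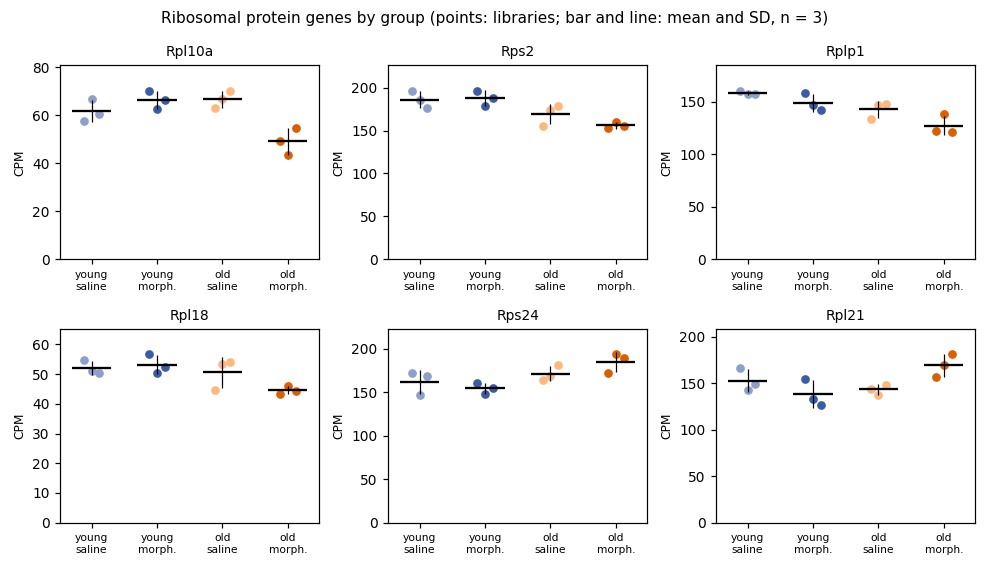
CPM of Rpl10a, Rps2, Rplp1, Rpl18, Rps24 and Rpl21, which passed the test for age under morphine, by group, with libraries as points, the mean as a bar and the SD as a line (n = 3); every axis starts at 0. In old morphine Rpl10a, Rps2, Rplp1 and Rpl18 lie below young morphine and Rps24 and Rpl21 above it.

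Across the ribosomal protein genes the fold changes of this comparison were lower at higher GC share, though not for every called gene. GC share had a median of 51.9% over the ribosomal protein genes, and Rpl10a, Rps2, Rplp1 and Rpl18, which fell, were at 55.5 to 58.2%, while Rps24, which rose, was at 46.7%. Rpl21, which also rose, was at 52.5%, above the median. Across the 83 genes the Spearman correlation of the log2 fold change with GC share was -0.69 for age under morphine and -0.54 for morphine in old mice, beside -0.57 and -0.37 over 16780 genes. Genes are not independent replicates, so these are descriptions. A library's own deviations correlated with GC share over these genes between 0.19 and 0.55 in young morphine and between -0.64 and -0.41 in old morphine. Old morphine replicate 3 stood farthest out, and it also had the highest share of mitochondrial reads (5.90%, against 3.31 to 4.53% in the others). After a smooth trend on GC share and transcript length had been taken out of every library, no ribosomal protein gene passed in any of the 5 comparisons by edgeR. Of all genes 0.786% then passed for age under saline, 0% for morphine in young mice, 0.536% for morphine in old mice, 0% in the interaction and 0.262% for age under morphine. At an unadjusted p under 0.05 there were then 11, 7, 13, 8 and 11 of the 83 in the same order, beside 17.2, 8.45, 14.6, 6.58 and 11.3% of all genes (for the 83 genes 13.3, 8.43, 15.7, 9.64 and 13.3%). Rpl10a then had -0.32 for age under morphine (edgeR adjusted p = 0.122), and Rpl21 had 0.35, against 0.29 before (edgeR adjusted p = 0.0971).

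**Figure D5:**
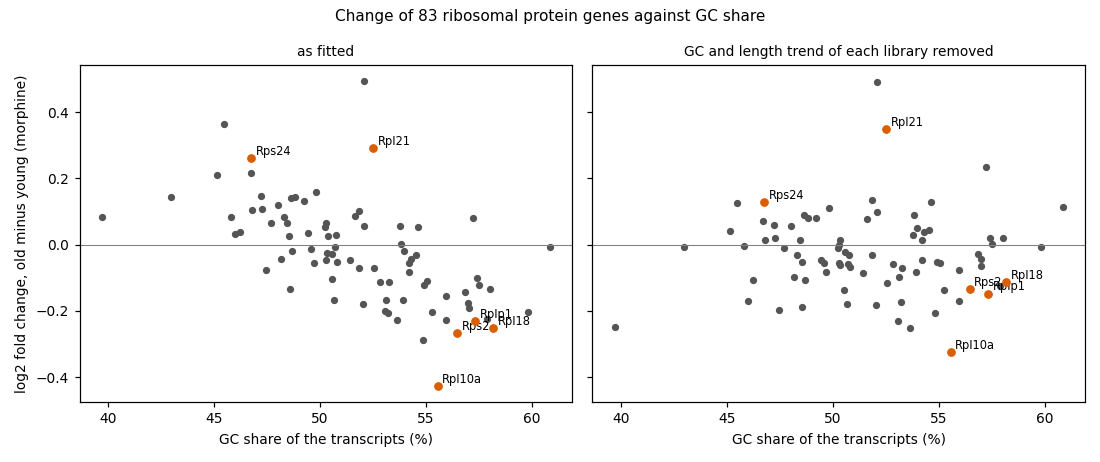
Log2 fold change of the 83 ribosomal protein genes for old against young under morphine, against GC share of their transcripts, as fitted (left) and with each library's trend on GC share and length removed (right); the named genes called in the left fit are in orange. The left cloud slopes downwards (Spearman rho -0.69) and the right one does not to the same degree (-0.11).

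Reads on transcripts not annotated as protein coding, such as those with retained introns, made up 8.80 to 8.99% of the ribosomal protein genes' reads in old morphine libraries and 7.69 to 8.22% in the other 9, which did not overlap. Over all protein-coding genes the same share was 8.22 to 8.72% in old morphine, and old saline replicate 1 reached 8.66%. By gene the share was highest for Rps27 (85.1%), Rpl12 (56.5%), Rpsa (53.4%), Rps20 (52.4%) and Rps16 (51.5%), with a median of 4.07%. The first of these, Rps27, also had nearly all reads of its coding sequence on Rps27rt.

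Other genes of the translation machinery were read from lists. Under saline, in young mice, in old mice and in the interaction, edgeR called none of the elongation factors and other TOP genes (19 tested), initiation factors (31), ribosome biogenesis genes (35), mTOR pathway genes (24) and mitochondrial ribosomal protein genes (78). At an unadjusted p under 0.05 these comparisons held 9, 11, 36 and 23 of the 187 genes in that order (4.81, 5.88, 19.3 and 12.3%), beside 13.5, 9.11, 18.7 and 10.8% of all genes. Limma-voom called 0 in each, and DESeq2 called 1, 0, 10 and 4, where it called 2.32, 0.976, 4.62 and 0.685% of all genes. For age under morphine, 17 of the 187 passed, 9.09% beside 9.65% of all genes, so the share was near the background. Here 3 of the 19 rose, Npm1 (0.32), Hnrnpa1 (0.25) and Nap1l1 (0.27), which are the TOP genes for a nucleolar chaperone, a splicing regulator and a histone chaperone rather than elongation factors (values are log2 fold changes; edgeR adjusted p was between 0.0074 and 0.0432 over the genes named here). Of 31 initiation factors, Eif3a (0.26) and Eif5b (0.31) rose and Eif6 (-0.33) and Eif4h (-0.17) fell. Of 35 biogenesis genes, Ncl (0.31), Nop58 (0.30) and Riok2 (0.29) rose. Of 24 mTOR pathway genes, the S6 kinase gene Rps6kb1 (0.31), Pdcd4 (0.21) and Larp4 (0.27) rose and Akt1s1 (-0.35) fell. Of 78 mitochondrial ribosomal protein genes, Mrpl4 (-0.31), Mrpl38 (-0.25) and Mrps7 (-0.28) fell. The median log2 fold change was 0.04, -0.02, 0.07, -0.07 and -0.06 for these 5 lists in that order, beside -0.03 for the cytosolic ribosomal protein genes and 0.01 for all genes. Of 16 small nucleolar RNA host genes 1 was tested, and it did not pass. Fau and Rack1 averaged 625 and 142 TPM and passed in no comparison.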

How the data were processed

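Total RNA from prefrontal cortex was extracted with Trizol, depleted of ribosomal RNA, made into libraries with the KAPA RNA HyperPrep kit and read on a NovaSeq instrument, per the labels' protocols. Per the submitters' processing notes, the authors used Salmon 1.4.0, DESeq2 1.30.1 and GRCm38. In each deposited file, the rows give an estimated count of reads (not whole numbers), a TPM and an effective length for each of 113911 transcripts, per the file headers. How Salmon was told to treat strand, bias and reads shared by several transcripts is not given in the sources used here. Of these transcripts 113694 were matched to genes of GENCODE M21, and the rest, 0.0793 to 0.0994% of reads, were left out.

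For each gene the estimated counts of its transcripts were added and rounded to whole numbers. The main test was edgeR 4.0.16 under R 4.3.3 (filterByExpr, TMM, robust quasi-likelihood test, 1 coefficient per group, 8 residual degrees of freedom) on 16796 genes, 83 of them ribosomal protein genes, with Benjamini-Hochberg adjustment over all genes and a threshold of 0.05. The lowest tested gene had at least 88 reads in every library. SE was taken from the size of the log2 fold change and the F statistic. With 3 against 3 libraries an exact permutation test of 1 gene cannot go below a two-sided p of 0.1. Copies were found with blastn 2.17.0. Alternatives were DESeq2 1.42.0 (also its size factors alone), limma-voom (limma 3.58.1), upper-quartile scaling, filters, length-scaled counts, protein-coding genes or transcripts alone, the replicate number as a block, a fit of only the groups compared, young morphine replicate 2 thinned, removal of a GC and length trend (natural splines, 5 degrees of freedom), and leaving out each library. Summed families, the 6 symbols with -ps taken in, the trend with the block, and old saline replicates 1 and 2 left out were added after seeing the data. The tests were checked on simulated counts. Replicates of a group differed beyond sampling noise (chi-square per degree of freedom 5.00 to 23.5).

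The members and lists were chosen with earlier results of these data known. Genes named are, per comparison, every member past the threshold, otherwise up to 3 higher and 3 lower with the smallest p, Rpl10a throughout, the 5 highest and 5 lowest levels, X-linked genes, paralogs, the 5 largest noncoding shares, the 3 highest and lowest correlations, and the called genes of other lists, up to 4. The 15 pairs of gene and copy, and the genes shown for their start regions, were chosen after values were seen. Results on some of the genes this rule names are not reported here.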

Additional observations from a re-analysis of the deposited data

How the results depend on the processing

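The number of ribosomal protein genes past the threshold depended on the processing. So did that of all genes, which for age under morphine was 9.65% in the main fit and 0.262% with the GC and length trend removed. For morphine in old mice the count of 1 became 3 with upper-quartile scaling, with no filter and with the stricter filter. It became 6 with DESeq2 (over all genes 4.62%), 2 with protein-coding genes alone and 4 with protein-coding transcripts alone. It became 0 with length-scaled counts, only the libraries compared, the GC and length trend removed (over all genes 0.536%) and families summed (0.587%). It was also 0 with old saline replicates 1 and 2 left out, a fit with 1 library in that group whose count says little. Leaving out 1 library gave 0 to 8, and 8 only without old saline replicate 1. For age under morphine the count of 8 became 13 with DESeq2, 0 with length-scaled counts and 0 with the trend removed. Where the share of all genes is not given for a fit, its count is not read as a trait of the ribosomal protein genes. Leaving out 1 library gave 2 to 9 there, with 2 without young morphine replicate 1 or 3. Those 2 libraries, young morphine replicate 2 and old morphine replicates 1, 2 and 3 each moved the count by more than 1.5 times. In the interaction DESeq2 called 1. For age under saline and morphine in young mice every alternative gave 0.

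Replicate numbers are shared between groups, but same-numbered libraries did not deviate together (mean correlations -0.05, -0.03 and -0.06). With the replicate block 0 genes were called for morphine in old mice and 4 for age under morphine, and 0 and 0 with the block and the trend removed.

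The median log2 fold change was 0.0097 with the trend removed (0.0105 with the block too) for morphine in old mice and 0.0536 (0.058 with the block) for the interaction. Over all genes it was 0.031 and 0.040 with the trend removed, against -0.0021 and -0.011 in the main fit. On deposited TPM the summed level changed by -0.14 for morphine in old mice, -0.13 for the interaction and -0.10 for age under morphine, against -0.09, -0.07 and -0.05 as a share of reads. With families summed the direction turned for Rpl10a under saline (-0.0252) and in young mice (-0.031), and for Rpl12 in young mice (-0.057). With coding transcripts alone it turned for Rpl23 in the interaction (-0.075). Leaving out 1 library gave Rpl10a -0.52 to -0.35 for morphine in old mice. No gene whose log2 fold change is given turned direction when 1 library was left out (12 fits). Reads that near-identical loci share limit the values of the genes with copies. The cause of these differences was not tested.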
